A study of Mus musculus with 20 samples.

Results

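Wild-type (WT) granulocyte-macrophage progenitors (GMPs) were compared with WT common myeloid progenitors (CMPs) across the transcriptome, using the 3 arrays titled WT GMP and the 3 titled WT CMP out of 20 arrays in the series. Both populations were sorted by flow cytometry from the bone marrow of female mice on a C57BL/6 background and were lysed for RNA with no culture step. The labels give no age, no sorting gates and no statement of whether WT mice carried Cre or received any agent, nor do they tie the 3 replicates of a group to different mice, so p-values below rest on the spread between samples that could be technical repeats. Besides these, the series holds 3 GMP and 3 CMP arrays titled CreER-Raptor, from mice with CreER and floxed alleles of Rptor (CreER-Rptor-flox/flox), sex and strain background being the same, and 8 arrays of lineage-negative marrow cells given M-CSF in culture. All genes with a probe set of their own were eligible, each represented by its probe set of highest mean, and 16638 of 22180 genes passed a filter on dim probe sets and were tested.

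CMPs can give rise to red cells, platelets, granulocytes and monocytes, whereas GMPs have largely lost the erythroid and platelet options and make granulocytes and monocytes. The choice is governed by antagonistic transcription factors, with Gata1 and Klf1 on the erythroid and megakaryocyte side and Spi1 (PU.1) and the C/EBP proteins on the granulocyte and monocyte side. CMPs as usually sorted are a mixture of cells already leaning one way or the other, and the usual gate divides CMPs from GMPs by the surface level of Fc gamma receptors.

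Between WT GMPs and WT CMPs 1831 genes were called at an adjusted p under 0.05, which is 11.0% of those tested (limma, Benjamini-Hochberg adjustment over all 16638 genes). Of these, 1107 were higher in WT GMPs (6.65% of genes tested) and 724 were lower (4.35%), and in 1820 of the 1831 the 3 WT GMP arrays did not overlap the 3 WT CMP arrays, against 35.2% of all genes tested. The calls were made on these same arrays, so the lack of overlap is no separate support for them. Counts of list members below are to be read beside these shares of all genes tested, 6.65% higher and 4.35% lower. Levels are log2 array signals and a change is the WT GMP mean less the WT CMP mean, in the same log2 units. The losses were fewer but larger: 125 genes were lower by at least 2-fold and 90 higher, 33 were lower by at least 4-fold and 3 higher (Epx, Prg3 and an immunoglobulin segment not named here), and 10 were lower by at least 8-fold and 0 higher. The median change was 0.55 among higher genes, -0.58 among lower genes and 0.00 over all genes tested (0.0035). When arrays were centred on their medians, 1346 genes were higher and 491 lower, so that 73.3% of calls were higher, against 60.5% in the values as deposited. Both counts fell by more than 1.5 times when WT GMP replicate 3 was left out (495 higher, 308 lower), the higher count also without WT CMP replicate 2 (529) or WT GMP replicate 1 (725), and the lower count also without WT CMP replicate 1 (384), 2 (482) or 3 (432) or WT GMP replicate 1 (411). These are bulk arrays, in which fewer cells of a type and less RNA per cell cannot be told apart.

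**Figure D1:**
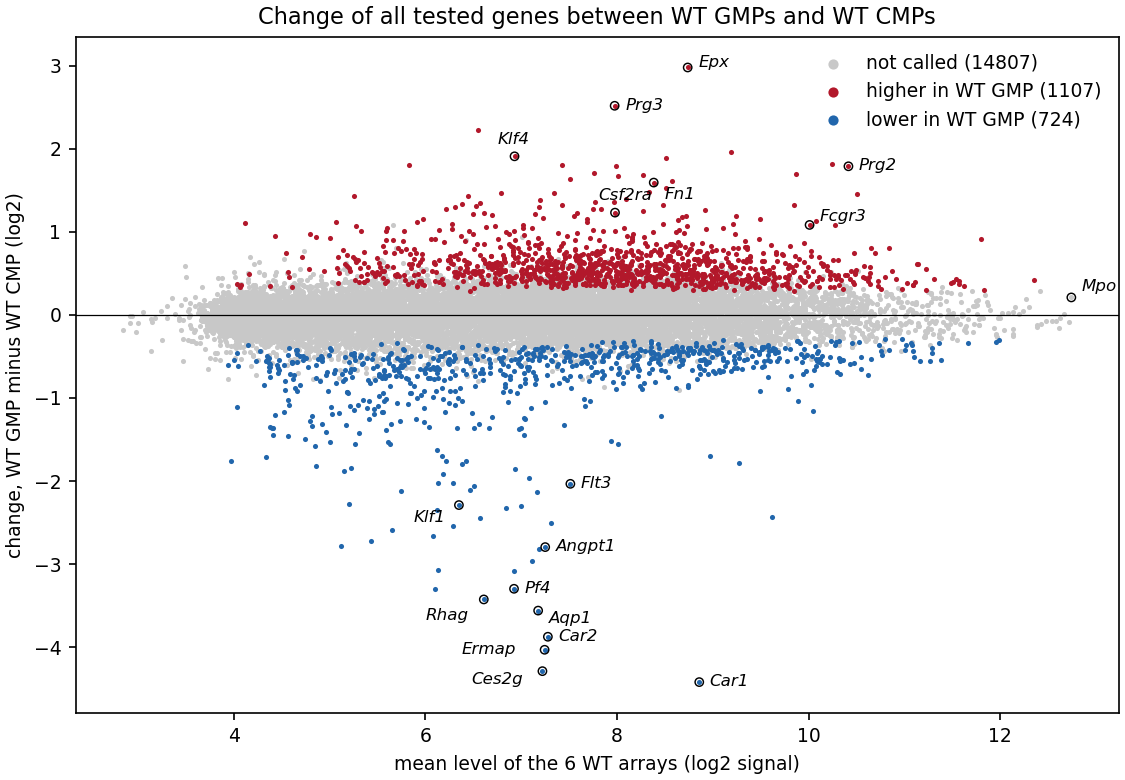
Change (WT GMP minus WT CMP, log2) of each tested gene against its mean level over the 6 WT arrays (log2 signal); each point is a gene, with 1107 called higher, 724 called lower and 14807 not called. The points below zero reach past -4, where Car1, Ces2g and Ermap lie, while those above zero end with Epx near 3.

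Of the 15 largest losses named here, 8 were genes on a list of red cell genes. Car1, a carbonic anhydrase of red cells, stood at 6.21, 6.76 and 6.98 in WT GMPs, against 11.13, 11.21 and 10.86 in WT CMPs. It fell by 4.42 ± 0.40 (SE), or 21.4-fold, with an adjusted p of 2.44e-07. Car2, another carbonic anhydrase, stood at 5.12, 5.52 and 5.38 in WT GMPs, against 9.26, 9.48 and 8.90 in WT CMPs, a change of -3.87 ± 0.21 (adjusted p = 1.92e-10). For both genes the gap between the groups was many times the spread within either. Ermap, an adhesion protein of erythroid cells, changed by -4.03 ± 0.34 and Ces2g, a carboxylesterase, by -4.29 ± 0.27. The blood group and membrane genes followed: Aqp1, the red cell water channel, changed by -3.56 ± 0.24, Rhag by -3.42 ± 0.38, Kel by -3.30 ± 0.28 and Rhd by -2.82 ± 0.27. Mfsd2b, which exports sphingosine-1-phosphate from red cells and platelets, changed by -3.09 ± 0.17, and Slc38a5, an amino acid transporter, by -2.67 ± 0.18. WT GMP means were low for Kel (4.45), Slc38a5 (4.75), Rhag (4.90), Ces2g (5.08) and Ermap (5.23), beside array medians of 4.76 to 4.91. Detection above background was not assessed, so the true size of such losses is not known. Of 25 erythroid genes tested on a list of 32, 22 were lower and 0 higher, with a median change of -2.06, and the count was 22 whichever WT array was left out. The 3 not called were Tfrc, the transferrin receptor (-0.45), Tal1 (-0.37) and Nfe2 (0.19). The mean level of the 25 genes lay between 5.51 and 5.65 on WT GMP arrays and between 7.64 and 7.77 on WT CMP arrays. The other genes on the list, Alas2 and the globin genes among them, were not analysed here. Among 15 heme synthesis and iron genes, 3 were lower, Tfr2, an iron sensor, by 1.37 ± 0.16, and the heme enzymes Cpox by 0.85 ± 0.18 and Alad by 0.84 ± 0.20, and the median change was -0.31.

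Of 25 megakaryocyte and platelet genes tested on a list of 30, 15 were lower and 0 higher, with a median of -0.58, and between 11 and 13 were lower when a WT array was left out. Pf4, the platelet chemokine CXCL4, stood at 4.82, 5.59 and 5.42 in WT GMPs, against 8.48, 8.50 and 8.74 in WT CMPs, and fell by 3.30 ± 0.22, or 9.83-fold (adjusted p = 3.33e-09). F2r, a thrombin receptor, changed by -1.76 ± 0.17, Vwf, von Willebrand factor, by -1.06 ± 0.15, and Itga2b, the integrin that marks the megakaryocyte path, by -1.05 ± 0.15. The mean level of the 26 genes with a probe set was 5.55 to 5.69 on WT GMP arrays and 6.14 to 6.43 on WT CMP arrays.

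The start regions of 4 of these lost genes are shown because each holds the letters that GATA factors are known to bind. Each window runs from 250 bases before to 50 after the gene's start (RefSeq, GRCm38.p6), 5′ to 3′ on the gene's strand, with AGATAA or TGATAA on either strand in capitals, and with GAGGAA, a motif of Spi1 and its relatives, also in capitals in Rhd and Pf4, where it lies on the opposite strand and reads TTCCTC.
Kel, chr6:41704276-41704575, minus strand: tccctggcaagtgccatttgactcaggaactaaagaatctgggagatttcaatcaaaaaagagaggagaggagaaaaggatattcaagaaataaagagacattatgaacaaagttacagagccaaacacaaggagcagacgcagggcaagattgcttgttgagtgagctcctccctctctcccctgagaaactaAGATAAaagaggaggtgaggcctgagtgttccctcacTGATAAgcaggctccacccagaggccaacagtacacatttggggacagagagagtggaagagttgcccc
Rhd, chr4:134864286-134864585, plus strand: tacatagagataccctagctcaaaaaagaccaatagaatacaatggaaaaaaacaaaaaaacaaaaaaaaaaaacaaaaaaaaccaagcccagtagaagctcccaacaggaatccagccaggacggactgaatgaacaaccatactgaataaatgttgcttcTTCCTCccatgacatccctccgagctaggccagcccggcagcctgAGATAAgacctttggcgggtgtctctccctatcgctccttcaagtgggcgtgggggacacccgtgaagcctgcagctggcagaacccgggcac
Klf1, chr8:84901732-84902031, plus strand: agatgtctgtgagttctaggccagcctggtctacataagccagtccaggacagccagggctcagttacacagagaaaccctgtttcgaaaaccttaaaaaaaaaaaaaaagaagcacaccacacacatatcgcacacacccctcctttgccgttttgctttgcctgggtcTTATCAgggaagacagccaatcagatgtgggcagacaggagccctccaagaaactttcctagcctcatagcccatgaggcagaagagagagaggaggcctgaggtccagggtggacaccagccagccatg
Pf4, chr5:90772185-90772484, plus strand: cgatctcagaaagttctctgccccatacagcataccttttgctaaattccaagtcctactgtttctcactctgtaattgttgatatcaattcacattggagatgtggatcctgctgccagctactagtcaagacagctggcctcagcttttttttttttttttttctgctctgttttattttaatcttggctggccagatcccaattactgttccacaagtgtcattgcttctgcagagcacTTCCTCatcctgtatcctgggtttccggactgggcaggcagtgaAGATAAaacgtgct
Of the 22 erythroid genes called lower, 17 had a window in the table, and 9 of these (52.9%) held AGATAA or TGATAA on either strand, as did 5 of 13 megakaryocyte genes called lower (38.5%). The share was 12.1% among 12921 tested genes with a window, 14.6% among the genes called lower and 10.1% among those called higher. Among genes changed by at least 2-fold it was 30.2% of those lower and 14.7% of those higher. In Kel the 2 matches begin 56 and 19 bases before the start, in Rhd the match begins 43 bases before it and in Klf1 80 bases before it, on the opposite strand, while in Pf4 it begins at base 37 of the transcript. A match is a description of these letters only, since binding was not measured here.

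Klf1, Gfi1b, Zfpm1 and Gata1, transcription factors of the erythroid and megakaryocyte path, were lower in WT GMPs. Klf1, the erythroid Krüppel-like factor, stood at 5.24, 5.07 and 5.31 in WT GMPs, against 7.41, 7.60 and 7.48 in WT CMPs, a fall of 2.29 ± 0.25, or 4.89-fold (adjusted p = 2.89e-06). Gfi1b, a repressor needed for red cells and platelets, stood at 6.17, 5.71 and 6.31 in WT GMPs, against 8.85, 8.65 and 8.21 in WT CMPs (-2.51 ± 0.24). Zfpm1, which encodes the Gata1 partner FOG-1, changed by -1.85 ± 0.17. Gata1 itself had a low level in WT GMPs, at 5.08, 4.95 and 4.86, against 6.08, 6.01 and 6.09 in WT CMPs, and fell by 1.10 ± 0.15 (adjusted p = 4.09e-05). Meis1, a homeobox factor of stem and early progenitor cells, changed by -0.81 ± 0.14. Gata2, which acts before Gata1, differed by -0.47 ± 0.19 and Tal1 by -0.37 ± 0.14, and neither passed the test (adjusted p = 0.12 and 0.102).

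On the granulocyte and monocyte side the clearest factor was Klf4, which drives monocyte differentiation. It stood at 7.95, 7.88 and 7.82 in WT GMPs, against 5.98, 5.95 and 6.01 in WT CMPs, and rose by 1.91 ± 0.15, or 3.75-fold (adjusted p = 5.28e-08). Spi1, the master factor of myeloid cells, rose by 0.61 ± 0.12, with 8.05, 7.98 and 8.05 in WT GMPs against 7.45, 7.26 and 7.53 in WT CMPs. Of the C/EBP family, Cebpa, the factor GMPs cannot form without, differed by 0.28 ± 0.13 (adjusted p = 0.186) and Cebpe, of later granulocytes, by 0.52 ± 0.17 (adjusted p = 0.0598), and neither was called. Irf8, a monocyte and dendritic cell factor, stood at 10.28, 10.15 and 10.25 in WT GMPs against 9.83, 9.79 and 9.49 in WT CMPs, with no overlap, and differed by 0.52 ± 0.18 (adjusted p = 0.0674). Cebpb (0.50 ± 0.16), Cebpd (0.53 ± 0.16) and Gfi1 (0.64 ± 0.20), a repressor needed for neutrophils, were called higher on all arrays. The Cebpb call was lost without any 1 of the 6 WT arrays (adjusted p 0.0649 to 0.162). The Cebpd call was lost without any of them other than WT GMP replicate 1 (0.0541 to 0.155), and the Gfi1 call without WT CMP replicate 1 or 2 or WT GMP replicate 1 or 3 (0.0737 to 0.306). Myb, Myc, Hoxa9 and Id2, which act in progenitors at large, differed by -0.11, -0.28, -0.31 and -0.34 and were not called. Of 39 fate factors tested, 6 were higher and 8 lower, and without WT CMP replicate 1 or 2 only 3 were higher, without WT GMP replicate 3 only 2.

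Genes of stem and multipotent cells showed losses in a minority. Flt3, the receptor that marks multipotent and lymphoid-leaning progenitors, stood at 6.60, 6.52 and 6.37 in WT GMPs, against 8.89, 8.47 and 8.24 in WT CMPs, and fell by 2.03 ± 0.18, or 4.09-fold (adjusted p = 1.38e-07). Angpt1, the ligand of the Tek receptor made by stem cells and megakaryocytes, stood at 5.74, 6.09 and 5.74 in WT GMPs, against 8.65, 8.70 and 8.59 in WT CMPs (-2.80 ± 0.14, adjusted p = 1.47e-10), while its other, dimmer probe set differed by -0.22. For both genes the lowest WT CMP array lay far above the highest WT GMP array. Mecom, a stem cell factor, was dim and changed by -0.69 ± 0.13. Of 32 genes tested on a stem cell list, 8 were lower and 0 higher, with a median change of -0.19. Without WT CMP replicate 1, WT GMP replicate 2 or WT GMP replicate 3 the count was 5. Ctla2a, a cysteine protease inhibitor found in stem cells, changed by -2.96 ± 0.20. Kit, the stem cell factor receptor, stood at 10.72, 10.67 and 10.89 in WT GMPs and at 10.81, 10.67 and 10.70 in WT CMPs, and the arrays overlapped. Cd34, on which these gates also rest, differed by -0.39 ± 0.15 (adjusted p = 0.1).

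**Figure D2:**
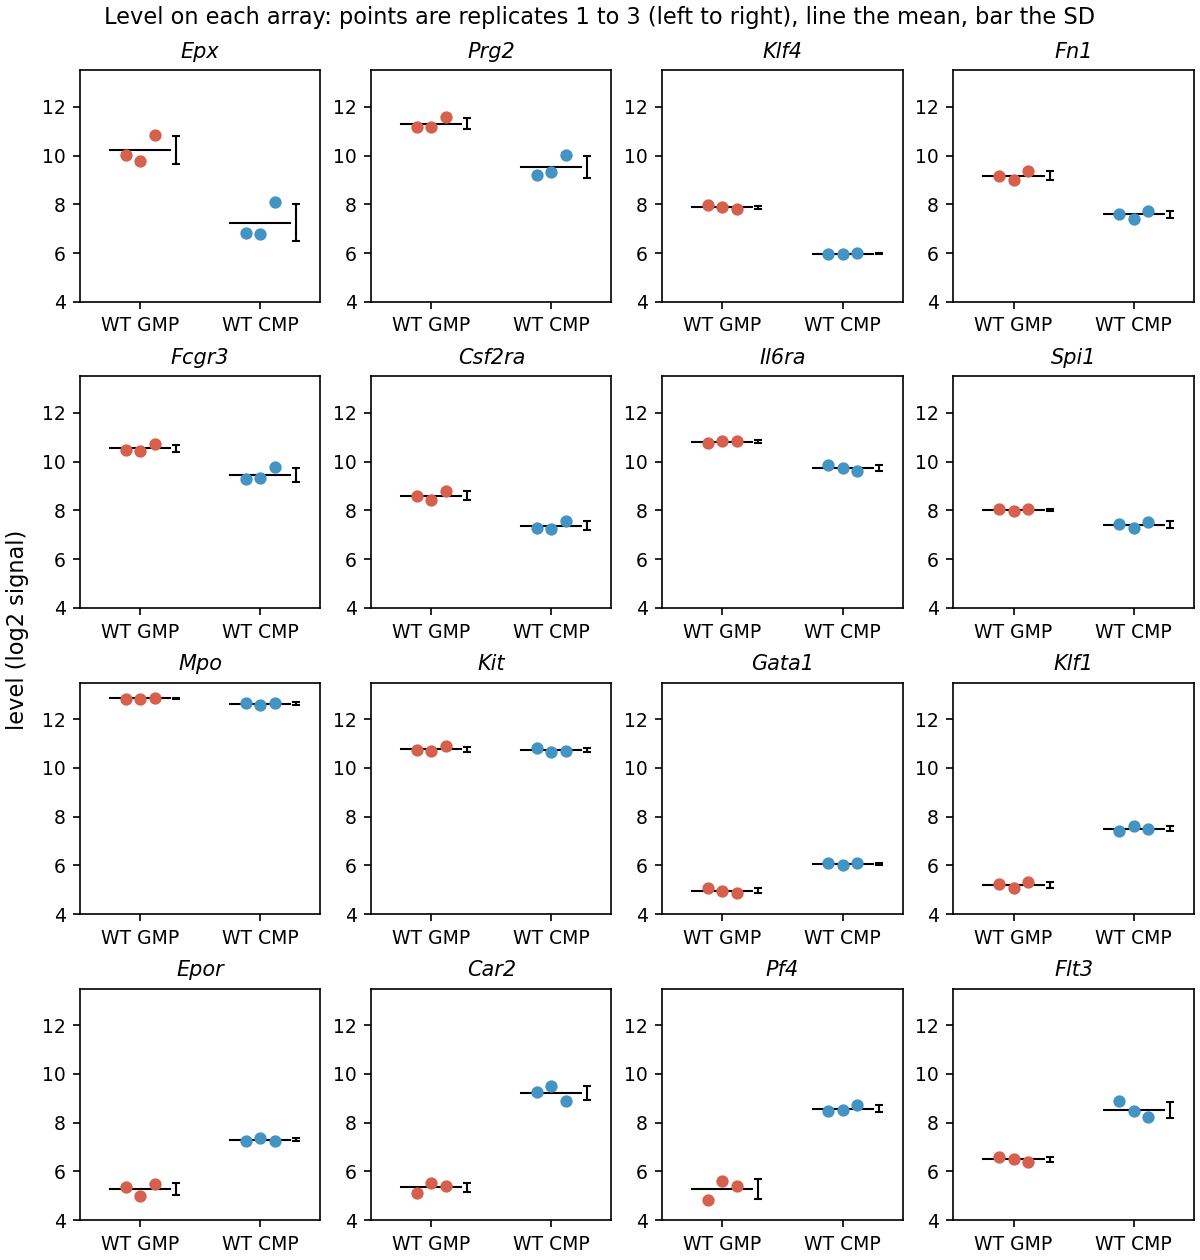
Level (log2 signal) of 16 genes on each of the 3 WT GMP and 3 WT CMP arrays; points are replicates 1 to 3 from left to right, the line is the mean and the bar the SD. The groups are apart in every panel except that of Kit, and in the panel of Mpo they differ by 0.21.

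Of 28 cytokine and growth factor receptors tested, 7 were higher and 3 lower, with a median change of 0.22. Csf2ra, the ligand-binding chain of the GM-CSF receptor, stood at 8.59, 8.41 and 8.78 in WT GMPs, against 7.27, 7.25 and 7.58 in WT CMPs, and rose by 1.23 ± 0.15, or 2.35-fold (adjusted p = 1.18e-05). Il6ra, the interleukin-6 receptor, stood at 10.75, 10.83 and 10.86 in WT GMPs, against 9.86, 9.73 and 9.63 in WT CMPs (1.08 ± 0.13). Csf1r, the M-CSF receptor of monocytes, had 9.51, 9.50 and 9.42 in WT GMPs, against 8.87, 8.86 and 8.78 in WT CMPs, a small change with a very tight spread (0.64 ± 0.11, adjusted p = 0.000532). Tnfrsf1b, a TNF receptor, rose by 0.81 ± 0.14. Epor, the erythropoietin receptor, stood at 5.35, 5.01 and 5.48 in WT GMPs, against 7.26, 7.37 and 7.26 in WT CMPs, and fell by 2.02 ± 0.22, or 4.06-fold. Il1r1, the interleukin-1 receptor, was also lower in WT GMPs, at 5.31, 5.56 and 5.16 against 7.15, 6.28 and 6.47 in WT CMPs (-1.29 ± 0.26, adjusted p = 0.00254). Csf2rb, the chain that the GM-CSF, interleukin-3 and interleukin-5 receptors share, did not pass the test (0.23 ± 0.12). Neither did Csf2rb2, the interleukin-3 form, at 0.34 ± 0.20, nor Il3ra at 0.36 ± 0.12 (adjusted p = 0.0572). Csf3r, the G-CSF receptor, differed by 0.51 ± 0.20 (adjusted p = 0.106).

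The best-known granule enzymes of neutrophils did not pass the test. Mpo, myeloperoxidase, stood at 12.84, 12.82 and 12.88 in WT GMPs against 12.67, 12.59 and 12.65 in WT CMPs, and its difference of 0.21 ± 0.09 did not pass the test (adjusted p = 0.165). The serine proteases of the same granules were alike in this: Elane differed by 0.28 ± 0.12, Prtn3 by 0.23 ± 0.10 and Ctsg by 0.09 ± 0.09. The SEs rest on a spread pooled over all 20 arrays, cultured cells included. The SD of Mpo itself was 0.032 in WT GMPs and 0.045 in WT CMPs. For Mpo and each of these proteases, all WT GMP arrays lay above all WT CMP arrays, though none was called. In CreER-Raptor cells all of them were called higher in GMPs, Mpo by 0.51, Elane by 0.75, Prtn3 by 0.72 and Ctsg by 0.43. The highest value in the whole table was 13.2, so Mpo lay near the top of the measured range in both groups. Fcnb, a ficolin of neutrophil granules, stood at 9.47, 9.75 and 9.68 in WT GMPs against 8.24, 8.46 and 9.04 in WT CMPs and rose by 1.05 ± 0.21 (adjusted p = 0.002). Ctsc, the protease that activates these granule proteases, rose by 0.80 ± 0.12, Clec12a, an inhibitory lectin of myeloid cells, by 0.54 ± 0.10 and Hp, haptoglobin, by 0.53 ± 0.11. Of 19 primary granule genes tested, 6 were higher and 0 lower, with a median of 0.31, and 14 were higher with array weights. Without the cultured arrays, 9 were higher on the 12 CMP and GMP arrays and 8 on the 6 WT arrays alone. All WT GMP arrays lay above all WT CMP arrays in 16 of the 19, against 19.5% of all genes tested. They lay below in 0, against 15.8%. Among 23 genes of secondary granules and mature neutrophils the median was 0.02 and 2 were higher, a share close to the 6.65% of all genes tested. Mcemp1, a membrane protein of granulocytes, rose by 1.32 ± 0.21. Ltb4r1, the leukotriene B4 receptor, rose by 0.82 ± 0.18, a call lost without WT GMP replicate 3 (adjusted p = 0.0529).

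The phagocyte NADPH oxidase, which makes the superoxide that kills engulfed microbes, rose in all of its 5 subunits with a probe set. Its membrane subunits were Cyba, at 11.22, 11.23 and 11.26 in WT GMPs against 10.32, 10.44 and 10.54 in WT CMPs (0.80 ± 0.10, adjusted p = 2.14e-05), and Cybb, at 9.72, 9.85 and 9.66 against 8.95, 8.95 and 9.20 (0.71 ± 0.13). The cytosolic subunits Ncf1 and Ncf4 each rose by 0.60 (SE 0.13 and 0.14). With any 1 WT array left out, 4 or 5 of the 5 were called.

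Of 29 monocyte and macrophage genes tested, 16 were higher and 0 lower, with a median change of 0.44, and 10 were higher without WT CMP replicate 3. Besides Klf4 and Csf1r, Fn1, fibronectin, stood at 9.17, 9.01 and 9.36 in WT GMPs, against 7.62, 7.42 and 7.72 in WT CMPs, and rose by 1.59 ± 0.17, or 3.02-fold (adjusted p = 2.61e-06). Ifi30, a lysosomal thiol reductase of antigen-presenting cells, rose by 0.89 ± 0.13. Cx3cr1, the fractalkine receptor of more mature monocytes, differed by -0.19 ± 0.17 and was not called. Among the 15 largest rises were also 3 surface genes outside this list. Mgl2, a galactose-binding lectin of macrophages, rose by 1.81 ± 0.34, Olr1, a scavenger receptor for oxidized lipoprotein, by 1.69 ± 0.24, and Itga1, an integrin chain for collagen, by 1.68 ± 0.14. The orphan receptor Gpr141 (1.79 ± 0.24), the ubiquitin ligase Rnf144b (1.70 ± 0.15), the adaptor Gapt (1.62 ± 0.17) and Fkbp1b, a binder of calcium release channels (1.64 ± 0.22), completed the leading rises outside the granule genes. H4f16, a histone H4 gene, rose by 1.97 ± 0.26 on its brighter probe set but differed by -0.06 on the other, and the H4 genes are near-identical copies, so its value is uncertain.

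Of 7 eosinophil genes tested, 4 were higher, also with any 1 WT array left out. Epx, eosinophil peroxidase, stood at 10.04, 9.78 and 10.85 in WT GMPs, against 6.84, 6.80 and 8.11 in WT CMPs, and rose by 2.98 ± 0.39, or 7.88-fold (adjusted p = 2.83e-05). Prg2, the major basic protein of eosinophil granules, stood at 11.17, 11.17 and 11.58 in WT GMPs, against 9.19, 9.33 and 10.04 in WT CMPs (1.79 ± 0.24). Its homologue Prg3 rose by 2.52 ± 0.30 and Ear6, an eosinophil ribonuclease with close paralogs, by 1.80 ± 0.38. In both groups replicate 3 was the highest array for these genes, and the groups still did not overlap. The eosinophil surface genes Il5ra (0.36), Siglecf (0.33) and Ccr3 (-0.11) were the 3 not called. The mean level of the 8 genes with a probe set was 6.70 to 7.22 on WT GMP arrays and 5.43 to 6.04 on WT CMP arrays, and the part of any committed eosinophil precursors in this result was not tested. Prss34, a protease of basophils, rose by 1.70 ± 0.21, with 10.75, 10.68 and 10.73 in WT GMPs against 8.85, 9.45 and 8.77 in WT CMPs. Gzmb, granzyme B, fell by 1.43 ± 0.19, and the other 8 of 10 mast cell and basophil genes tested were not called.

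Of 16 Fc receptors and C-type lectins, 9 were higher and 0 lower, with a median of 0.56. Fcgr3 and Fcgr2b, the Fc gamma receptors by which the usual gate divides these cells, rose by 1.08 ± 0.14 and 0.79 ± 0.13, values that check the labels and are no finding where the sort used these proteins. Fcgr3 stood at 10.48, 10.46 and 10.71 in WT GMPs and at 9.28, 9.33 and 9.79 in WT CMPs. Clec5a, an activating lectin receptor, stood at 8.92, 8.88 and 8.89 in WT GMPs, against 7.54, 7.16 and 8.24 in WT CMPs, and rose by 1.25 ± 0.22 (adjusted p = 0.000937), and the signal chain Tyrobp that it uses rose by 0.75 ± 0.13. Among 15 Toll-like receptor genes, 6 were higher and 0 lower, with a median of 0.47, and 3 were higher without WT CMP replicate 2 or WT GMP replicate 3. Tlr1, which senses bacterial lipopeptides with Tlr2, rose by 1.17 ± 0.15, Tlr8 by 1.12 ± 0.20 and Unc93b1, which carries endosomal Toll-like receptors, by 0.76 ± 0.16. Itgb2, the beta chain of the leukocyte integrins, rose by 0.85 ± 0.17, and was 1 of 5 genes higher, with 2 lower, among 21 chemokine receptors, integrins and selectin ligands (median -0.04, or 0.01 with arrays centred on their medians). The count of 5 was 1 without WT CMP replicate 2 or 3 or WT GMP replicate 3, and 2 without any other WT array. The lower genes were Itga2b and Itgax, and the count was 1 without WT CMP replicate 1 or 2 or WT GMP replicate 1. The start regions of Fcgr3 and Clec5a are shown because both hold GAGGAA on the opposite strand, which reads TTCCTC here, in capitals.
Fcgr3, chr1:171059354-171059653, minus strand: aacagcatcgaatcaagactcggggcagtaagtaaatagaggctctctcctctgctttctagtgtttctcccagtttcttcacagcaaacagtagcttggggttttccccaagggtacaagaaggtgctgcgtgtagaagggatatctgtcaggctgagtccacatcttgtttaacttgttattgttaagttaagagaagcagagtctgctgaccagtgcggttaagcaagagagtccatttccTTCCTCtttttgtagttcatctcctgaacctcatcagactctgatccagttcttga
Clec5a, chr6:40585756-40586055, minus strand: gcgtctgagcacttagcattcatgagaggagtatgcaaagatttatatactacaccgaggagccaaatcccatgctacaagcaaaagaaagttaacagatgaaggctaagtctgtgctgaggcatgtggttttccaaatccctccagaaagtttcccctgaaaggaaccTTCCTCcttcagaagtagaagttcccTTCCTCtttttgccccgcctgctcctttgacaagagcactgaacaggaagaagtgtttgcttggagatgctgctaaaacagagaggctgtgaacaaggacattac
Of the 9 called Fc receptors and lectins, 8 had a window and 5 of these (62.5%) held GAGGAA on either strand. So did 27.1% of tested genes with a window, 28.0% of those called higher and 26.6% of those called lower. The share was 39.7% of genes higher by at least 2-fold, 27.9% of those lower by at least 2-fold, 10.0% of called lysosome genes and 61.5% of the megakaryocyte genes called lower. The C/EBP motif TTGCNNAA, which equals its own reverse complement, was in 9.9% of windows of genes called higher, 16.2% of those higher by at least 2-fold (11 of 68) and 8.9% of all. Its share was 7.6% of genes called lower and 10.5% of those lower by at least 2-fold (9 of 86). It was 15.4% of megakaryocyte genes called lower (2 of 13) and 0.0% of erythroid genes called lower.

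Of 28 lysosome and autophagy genes tested, 13 were higher and 0 lower, with a median change of 0.32, and 7 were higher without WT CMP replicate 2 or WT GMP replicate 3. Neu1, the lysosomal sialidase, stood at 8.53, 8.66 and 8.77 in WT GMPs, against 7.57, 7.58 and 7.90 in WT CMPs, and rose by 0.97 ± 0.15 (adjusted p = 0.000142). The proteases Ctsh and Ctsb rose by 0.91 ± 0.17 and 0.45 ± 0.08, and Atp6v0d1, a subunit of the proton pump that acidifies lysosomes, by 0.77 ± 0.11.

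Of 30 genes of S phase and DNA replication, 2 were higher (median 0.11), a share close to that of all genes tested, and of 28 genes of G2 and mitosis, 3 were higher and 1 lower (median -0.04), with 0 higher in either list without WT GMP replicate 3. The S phase count was 1 without any other WT array. It was 1 after quantile scaling, 4 after cyclic loess, 5 with arrays centred on their medians or on the 6 WT arrays alone, 6 on the 12 CMP and GMP arrays and 10 with array weights. The mitosis count was 0 without WT CMP replicate 2 and 1 without WT CMP replicate 1 or WT GMP replicate 2. All WT GMP arrays lay above all WT CMP arrays in 14 of the 30 S phase genes, against 19.5% of all genes tested. They lay below in 4, against 15.8%. In the 28 mitosis genes they lay above in 4 and below in 6. The S phase genes called were E2f1 (0.50) and Mcm10 (0.34), and the mitosis genes Aurkb (0.41), Foxm1 (0.61), Racgap1 (0.43) and, lower, Cenpe (-0.50), a call lost without any WT array other than WT GMP replicate 2 (adjusted p 0.0687 to 0.304). E2f2, an activator of S phase genes, rose by 0.66 ± 0.15 and was the 1 call among 17 G1 cyclins, kinases and inhibitors. Ribosome biogenesis genes included 7 lower and 0 higher of 29, with a median of -0.09, and 3 lower with arrays centred on their medians. Ncl, nucleolin, stood at 10.85, 11.05 and 10.76 in WT GMPs, against 11.46, 11.51 and 11.34 in WT CMPs (-0.55 ± 0.12, adjusted p = 0.00383). The count of 7 was 1 without WT GMP replicate 3, 2 without WT GMP replicate 1 or WT CMP replicate 1 or 2, and 3 without WT CMP replicate 3. Pgd, an enzyme of the pentose phosphate path that makes NADPH, was the 1 called gene of 17 on the glycolysis list and rose by 0.58 ± 0.13. Rpl32 rose by 0.75 ± 0.12 among 25 ribosomal protein genes, of which 1 more was called. Rptor, the scaffold of mTORC1 and the gene floxed in the other genotype, stood at 9.25, 9.17 and 9.44 in WT GMPs, against 8.72, 8.51 and 8.68 in WT CMPs, and rose by 0.65 ± 0.13 (adjusted p = 0.00185). The 20 genes of the mTOR complexes and their regulators had a median change of 0.15. In the Bcl2 family of survival and death genes, 3 of 13 were higher and 1 lower, and the death effector Bak1 rose by 0.77 ± 0.16.

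Small counts on the remaining lists rested on genes whose calls depended on single arrays. Over all genes tested, 6.65% were called higher and 4.35% lower. In the mTOR list, Lamtor1 (0.35) lost its call without any WT array other than WT GMP replicate 2 (adjusted p 0.0658 to 0.185) and Rheb (-0.43), the GTPase that switches mTORC1 on, without WT CMP replicate 3 or WT GMP replicate 1 or 3 (0.0588 to 0.0875). In the Bcl2 family, Bid (0.55) lost it without WT CMP replicate 3 or WT GMP replicate 1 or 2 (0.0517 to 0.147), Bad (0.38) without any array other than WT CMP replicate 1 (0.0688 to 0.112) and Bcl2 (-0.47), the survival gene, without WT CMP replicate 1 or 2 or WT GMP replicate 1 or 3 (0.107 to 0.136). Of 24 respiratory chain genes, Ndufv2 (-0.48) and Ndufs1 (-0.50) were lower, both lost without WT CMP replicate 3 or WT GMP replicate 1 or 3, Ndufv2 also without WT CMP replicate 2 and Ndufs1 also without WT CMP replicate 1 (0.054 to 0.2). Of 25 ribosomal proteins the second call was Rplp0, which differed by 0.44 on its brighter probe set and 0.04 on the other (0.0403), a call lost without WT CMP replicate 1 or 2 or WT GMP replicate 1 or 3 (0.0656 to 0.121). Xbp1 (0.37), a factor of the unfolded protein response and the 1 call among 25 genes of that list, was lost without any array other than WT CMP replicate 3 (0.0723 to 0.192). Ifit1 (-0.49), the 1 call among 25 interferon-stimulated genes, was lost without any array other than WT CMP replicate 1 (0.0606 to 0.15). The medians of these lists were -0.01 for the respiratory chain, -0.05 for ribosomal proteins, 0.03 for the unfolded protein response and -0.24 for interferon-stimulated genes. Of 19 cholesterol synthesis genes (median 0.17), 4 were higher, Mvd, Insig1, Mvk and Nsdhl, by 0.41 to 0.59, and 0 without WT CMP replicate 2 or WT GMP replicate 1 and 1 without WT CMP replicate 3 or WT GMP replicate 3. Of 25 immediate early and heat shock genes (median 0.07), Junb (0.45) and Klf6 (0.60) were higher, and the count was 0 without WT CMP replicate 1 or 2 or WT GMP replicate 3, 1 without WT CMP replicate 3 and 4 without WT GMP replicate 1.

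**Figure D3:**
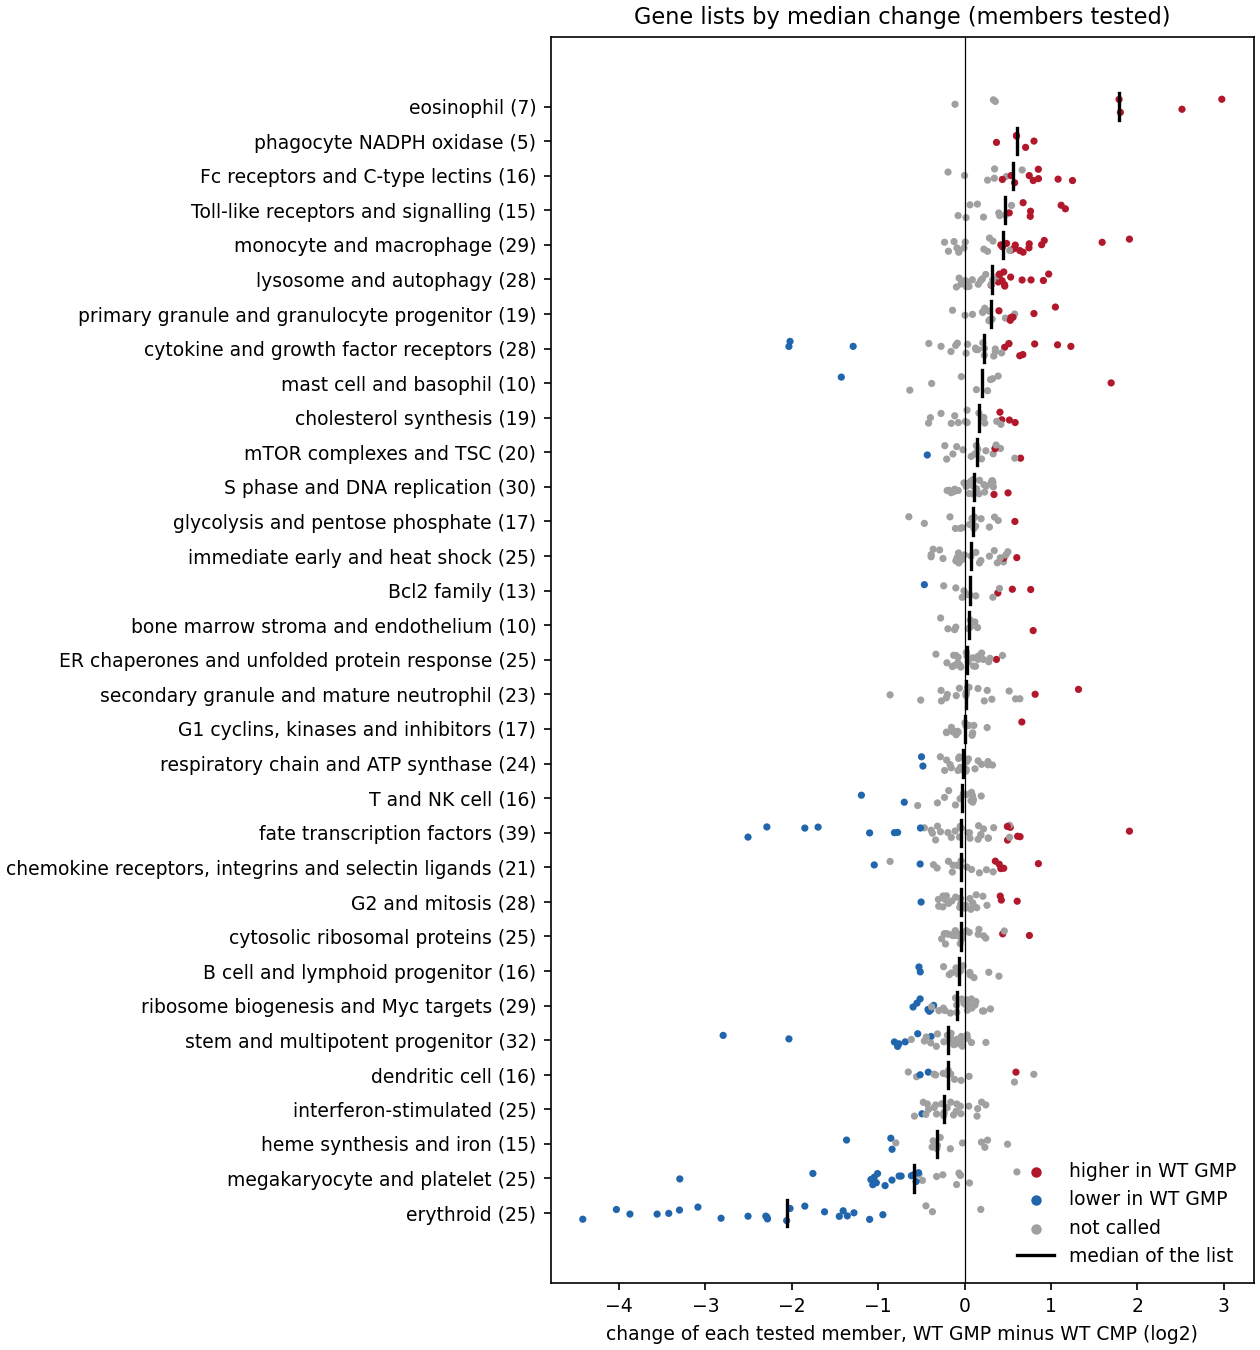
Change of each tested member (WT GMP minus WT CMP, log2) in 33 gene lists ordered by their median, which the black line marks; red and blue points were called higher and lower in WT GMPs and grey points were not called. Erythroid genes (median -2.06) lie farthest left and eosinophil genes (median 1.79) farthest right.

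Markers of other lineages were mostly not called, as were most genes tested, of which 11.0% were called. Mean levels were low on the T and NK cell, B cell and stroma lists and higher on the dendritic cell list. Of 16 T and NK cell genes 2 were lower, with a mean level of 4.47 to 4.62 on WT GMP arrays and 4.54 to 4.84 on WT CMP arrays. Il2rb, a chain of the interleukin-2 receptor, stood at 4.31, 4.64 and 4.35 in WT GMPs, against 5.86, 6.07 and 4.95 in WT CMPs (-1.19 ± 0.21). The other was Ncr1 (-0.70), an NK cell receptor, not called without WT CMP replicate 1 or 2 or WT GMP replicate 3 (adjusted p 0.0579 to 0.0717). Of 16 B cell and lymphoid progenitor genes, Ccr7 (-0.51) and Dntt (-0.53), the enzyme that adds bases to antigen receptor joints, were lower, at a mean level of the list of 4.96 to 5.10 in WT GMPs and 5.09 to 5.12 in WT CMPs. The Ccr7 call was lost without any WT array other than WT GMP replicate 2 and the Dntt call without any other than WT CMP replicate 2 (0.0618 to 0.171). Il7r, the interleukin-7 receptor, stood at 3.49, 3.95 and 4.06 in WT GMPs and at 3.72, 3.84 and 4.20 in WT CMPs, with overlap. Of 10 stroma and endothelium genes 1 was higher, Vcam1 (0.79), whose arrays overlapped and whose call was lost without any WT array other than WT CMP replicate 3 (0.0532 to 0.25), and the mean level was 4.67 to 4.75 in WT GMPs and 4.66 to 4.80 in WT CMPs. Among 16 dendritic cell genes (5.99 to 6.10 in WT GMPs, 6.09 to 6.21 in WT CMPs), H2-DMb2 (0.60) was higher and Itgax (-0.51) and Zbtb46 (-0.42) were lower. H2-DMb2 was not called without any WT array other than WT CMP replicate 1, Zbtb46 without any other than WT CMP replicate 3, and Itgax without WT CMP replicate 1 or 2 or WT GMP replicate 1 (0.066 to 0.215). The part of such cells in the results was not tested.

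The same step was also measured in CreER-Raptor mice, and the genotypes share no sample. Both steps come from the same fit with a common spread for each gene. Genes of small spread are thus more readily called in both, and shared calls are not independent repeats. CreER-Raptor GMPs differed from CreER-Raptor CMPs in 4639 genes, 27.9% of those tested. Of the 1107 genes higher in WT GMPs, 829 were also higher in CreER-Raptor GMPs, which is 74.9% of the WT genes and 39.8% of the 2083 CreER-Raptor genes. Of the 724 lower genes, 615 were also lower, 84.9% of the WT genes and 24.1% of 2556. Over all genes tested, 12.5% were called higher and 15.4% lower in CreER-Raptor GMPs. The sign of change matched in 94.3% of the higher and 97.2% of the lower WT genes, against 70.2% of all genes tested. In 416 genes (2.5%) the WT change differed from the CreER-Raptor change by the test of that difference, a count that was 228 without CreER-Raptor CMP replicate 2, 647 without CreER-Raptor CMP replicate 3, 265 without WT CMP replicate 3, and 276 or 245 without WT GMP replicate 1 or 2. In 266 of these the CreER-Raptor step was called and the WT step was not, and in 112 both were called with the same sign. Another 29 were called in WT alone and 8 had calls of opposite sign.

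Erythroid losses were shared, with a list median of -2.06 in WT and -2.88 in CreER-Raptor, whereas the monocyte list had a median of 0.44 in WT and 0.11 in CreER-Raptor, and the difference was called for 3 of 25 and 8 of 29 members. Klf4 rose by 1.91 in WT and by 0.42 ± 0.15 in CreER-Raptor cells, where it stood at 5.92, 5.67 and 5.21 in GMPs and at 5.35, 5.13 and 5.06 in CMPs. The difference of 1.49 ± 0.22 was called (adjusted p = 0.000375). Csf1r rose in WT and differed by -0.05 ± 0.11 in CreER-Raptor cells, a difference of 0.69 ± 0.15 (adjusted p = 0.0154) that was not called without CreER-Raptor CMP replicate 1 (0.0539). Ifi30 differed by 0.00 ± 0.13 in CreER-Raptor cells (0.0019), and the difference from WT was 0.89 ± 0.18. Of the 8 monocyte genes, 5 changed more in the positive direction in WT and 3 in CreER-Raptor cells. Of 19 primary granule genes the difference was positive for 1, Ctsc (0.68), and negative for 5, Clec12a and Fcnb among them, and it was negative for 4 of 23 secondary granule genes. Cebpe, the granulocyte factor, also had a negative difference. Cebpe changed by 0.52 in WT and by 2.24 ± 0.18 in CreER-Raptor cells, with 8.79, 9.16 and 8.50 in CreER-Raptor GMPs against 6.53, 6.93 and 6.27 in CreER-Raptor CMPs, and the difference was -1.72 ± 0.25 (adjusted p = 0.000303). The Cebpe mean was alike in GMPs, at 8.85 in WT and 8.82 in CreER-Raptor. It differed in CMPs, at 8.33 in WT and 6.58 in CreER-Raptor. Clec12a and Fcnb changed by 1.67 and 2.47 in CreER-Raptor cells, differences of -1.14 ± 0.14 and -1.42 ± 0.29. Both had lower means in CreER-Raptor than in WT cells, and more so in CMPs. Clec12a averaged 9.96 against 10.76 in GMPs and 8.28 against 10.22 in CMPs. Fcnb averaged 9.21 against 9.63 in GMPs and 6.74 against 8.58 in CMPs.

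The largest difference between the genotypes was in Plxdc1, a plexin-domain membrane protein. It stood at 7.90, 7.85 and 7.75 in WT GMPs, against 6.52, 6.62 and 6.47 in WT CMPs (1.30 ± 0.15), and at 5.18, 5.70 and 5.31 in CreER-Raptor GMPs, against 7.82, 8.02 and 7.44 in CreER-Raptor CMPs (-2.36 ± 0.15). The changes had opposite signs, and the difference of 3.66 ± 0.22 had an adjusted p of 2.58e-09. Slc25a21, a mitochondrial carrier, and Bex4 were 2 of the 15 largest WT losses (-2.78 and -2.72), but both were dim in GMPs. Slc25a21 averaged 3.73 in WT GMPs against 6.51 in WT CMPs, and 4.00 in CreER-Raptor GMPs against 8.79 in CreER-Raptor CMPs. Bex4 averaged 4.08 in WT GMPs against 6.80 in WT CMPs, and 4.83 in CreER-Raptor GMPs against 9.42 in CreER-Raptor CMPs. Detection above background was not assessed, so the true size of these losses and of their difference between genotypes is not known. The same limit holds for other large losses with low WT GMP means, such as Kel (4.45) and Pf4 (5.28). The WT GMP mean of Slc25a21 lay below the filter on dim probe sets (3.86), as it did for 14 of the 724 lower genes, and the WT CMP mean lay below it for 2 of the 1107 higher genes.

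**Figure D4:**
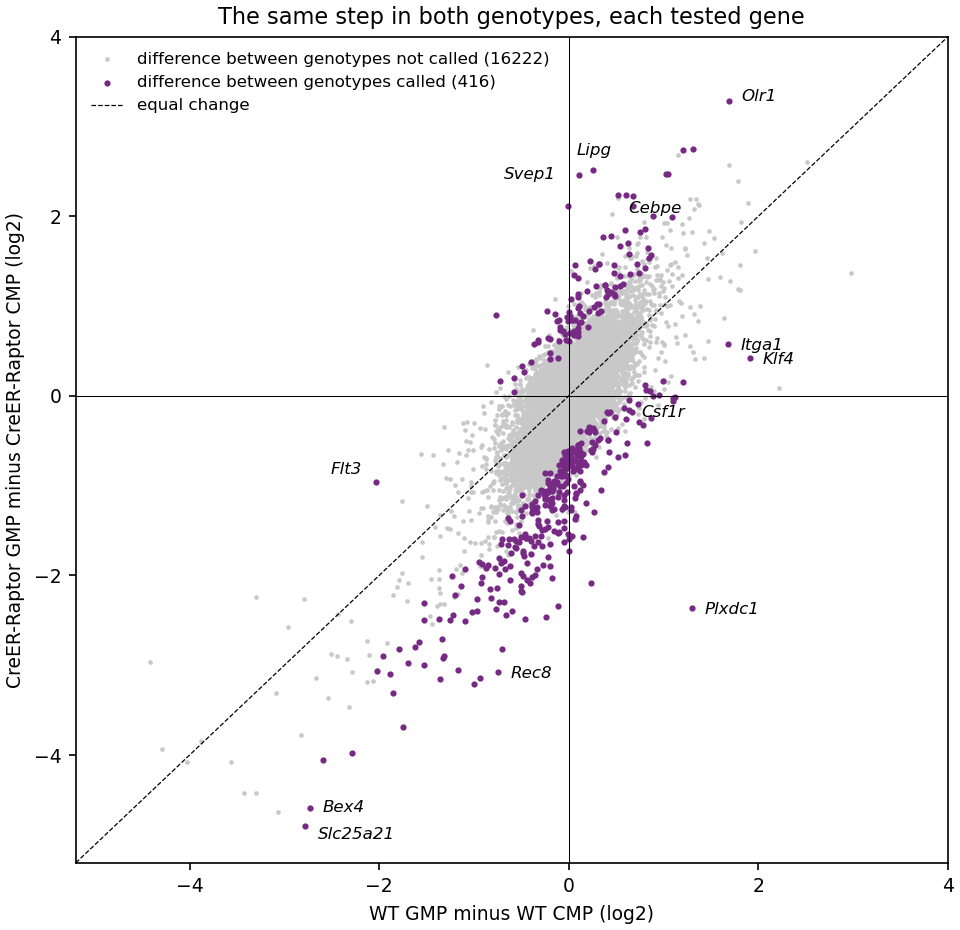
Change between GMPs and CMPs in CreER-Raptor cells (vertical, log2) against the same change in WT cells (horizontal, log2) for each tested gene; purple points are the 416 genes whose change differed between genotypes, and the dashed line marks equal change. Plxdc1 lies alone at 1.30 and -2.36, and Klf4, Itga1 and Csf1r lie to the right of the line.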

How the data were processed

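Per the labels' protocols, 1 to 5 ng of total RNA from sorted cells went through NuGEN whole-transcript amplification and biotin labelling before hybridization to single-channel arrays. The authors deposited log2 values, which span 1.77 to 13.2. Per the submitters' processing notes, RMA, Partek 6.6 and limma were used, in roles that are not given in the sources used here. RMA scales arrays to each other, which takes out any shift common to most transcripts. Array medians were 4.76 to 4.91. Detection above background was not assessed, and precision is limited by how few arrays there are.

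The platform annotation gave a single symbol to 23521 of 41345 probe sets, several to 1814 and none to 16010. RefSeq (GRCm38.p6) held 23328 of the 23521 and lacked 193, which changed 0 symbols. For each of 22180 genes (1082 with several probe sets) the probe set with the highest mean was kept, and the 16638 genes at or above the 25th percentile (log2 3.86) were tested. Groups came from the sample titles. Limma 3.58.1 in R 4.3.3 was fitted to all 20 arrays with 6 group means (14 residual degrees of freedom). The spread of a gene was thus pooled over all groups. Arrays of cultured cells varied more around their group means (residual SD 0.171 to 0.236) than WT GMP and WT CMP arrays (0.109 to 0.146). Differences are WT GMP minus WT CMP, and the genotype difference is that change minus the CreER-Raptor one. Exact permutation of 3 against 3 arrays cannot go below 0.1, so single genes were tested only in this fit. On simulated data for this comparison, over 16638 genes, calls recovered 50% of genes given a change of 0.5, 96% at 1 and 100% at 1.5 and 2 log2 units, with 5 false calls. The simulated noise was normal, independent between arrays and of 1 spread per gene in all groups. Real arrays differed in spread, so these rates check the fit and need not hold for the data.

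The comparison, the 34 gene lists (766 genes, 654 tested) and 40 key genes (38 tested) were chosen with earlier results of these data known. On the histone list 0 of 20 symbols matched a probe set. Named genes were the 15 of largest change in each direction whose arrays do not overlap, up to 4 called members of smallest p in each direction of a list, the key genes, and the 5 largest genotype differences in each direction. Predicted genes, clones, small RNAs and receptor gene segments were counted but not named. List members named outside this rule, because few of a list were called or to show those that were not, were chosen after their values were seen. The first promoter window of each gene in the RefSeq table was searched on both strands. The labels number replicates 1 to 3 in both groups. Same-numbered WT arrays deviated together with correlations of 0.07, 0.01 and 0.09 (0.0675, 0.0052 and 0.0872). Same-numbered CreER-Raptor arrays did so at 0.1846, 0.0479 and 0.1709, each the highest for its GMP array. The labels state no pairing and the main fit uses none, but whether the numbers pair samples is not known. Alternatives were other filters, probe set rules, array sets, scalings, array weights, eBayes settings, a fold threshold of 1.5 and each array left out.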

Additional observations from a re-analysis of the deposited data

Results flagged for a closer look

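The following genes changed between GMPs and CMPs to a different degree in WT and CreER-Raptor cells, by a test of the difference itself (limma, adjusted p under 0.05 over 16638 genes). Values are the WT change minus the CreER-Raptor change in log2 units, and groups of 3 arrays were not tested for single outlying arrays. Among monocyte and macrophage genes the difference was 1.49 for Klf4, 0.69 for Csf1r and 0.89 for Ifi30, and outside that list it was 1.13 for Tlr8, 1.10 for Itga1 and -1.59 for Olr1. Among granulocyte genes it was 0.68 for Ctsc, -1.14 for Clec12a, -1.42 for Fcnb and -1.72 for Cebpe. It was -1.07 for Flt3, 0.60 for the mitotic kinase Aurkb, 2.01 for Slc25a21 and 1.87 for Bex4, both dim in GMPs of either genotype. The largest positive differences were 3.66 for Plxdc1, 2.33 for Rec8, 2.31 for Ano1, 2.22 for Pkd1l3 and 2.22 for Nxpe4, and the largest negative ones -2.36 for Svep1, -2.26 for Lipg, -2.12 for Slco4c1 and -1.67 for Gpc3.

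Of these, Svep1, Lipg, Slco4c1, Ano1, Pkd1l3 and Nxpe4 were not called in WT, where they differed by -0.24 to 0.26. Gpc3 (-0.76 in WT) and Cebpe (0.52 in WT) were not called there either. The call for Ctsc was lost in 8 of 12 leave-one-out fits (adjusted p up to 0.0862), that for Tlr8 in 10 (up to 0.111), that for Aurkb in 7 (up to 0.0886), that for Flt3 in 5 (up to 0.0833) and that for Csf1r in 1, without CreER-Raptor CMP replicate 1 (0.0539). Ctsc lost it without CreER-Raptor CMP replicate 1 or 2, CreER-Raptor GMP replicate 2 or 3, WT CMP replicate 1 or 2 or WT GMP replicate 1 or 2. Tlr8 kept it only without WT CMP replicate 3 or WT GMP replicate 3. Aurkb lost it without CreER-Raptor CMP replicate 1 or 2, CreER-Raptor GMP replicate 1, any WT CMP array or WT GMP replicate 3, and Flt3 without CreER-Raptor CMP replicate 2, CreER-Raptor GMP replicate 1, WT CMP replicate 1 or WT GMP replicate 2 or 3. The cause of the differences was not tested.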

How the results depend on the processing

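Genes higher in WT GMPs numbered 1107, and 1664 with the replicate block on the 6 WT arrays, 2092 with array weights, 477 with a fold change of at least 1.5 and 495 to 880 with 1 WT array left out. Genes lower numbered 724, and 1216 on the 6 WT arrays alone, 1229 with the replicate block on them, 1903 with array weights, 360 with a fold change of at least 1.5 and 308 to 671 with 1 WT array left out. On the 6 WT arrays alone 1636 genes were higher. On the 12 CMP and GMP arrays 1456 were higher and 895 lower. Genotype differences numbered 416, and 654 on the 12 CMP and GMP arrays, 727 with the replicate block on these, 1980 with array weights and 228 to 647 with 1 array left out. With the replicate block on all 20 arrays the counts were 1102, 692 and 403. The block left 2 residual degrees of freedom on the 6 WT arrays, and WT GMP replicates 1 and 2 correlated best with WT CMP replicates 2 and 3, not with their own numbers. WT GMP replicate 3 and every CreER-Raptor GMP replicate correlated best with the CMP array of their own number. Centring arrays on their medians gave 1346 higher and 491 lower. Scaling moved the median of all genes by at most 0.0549. Of 41 list counts above 0, array weights moved 23 by over 1.5 times (all upward, such as 13 fate factors and 14 stem cell genes lower and 10 interferon-stimulated genes lower), the 6 WT arrays alone 13, the 12 CMP and GMP arrays 11, median centring 11 (7 downward), quantile scaling 5 and cyclic loess 3. Of 3734 values of 174 named results under the alternatives, 3377 kept sign and side of the threshold, 291 were no longer called, 57 became called and 9 changed sign. Those 9 were uncalled: Kit at -0.0031 with array weights and -0.03 without WT GMP replicate 3 (-0.0294), Il7r at 0.06 without WT CMP replicate 3 (0.0588) and 0.09 without WT GMP replicate 1 (0.0867), and Slco4c1 at 0.0674, 0.0489 and 0.0222 after quantile, median and cyclic loess scaling, 0.2288 without WT CMP replicate 3 and 0.0916 without WT GMP replicate 1. With 1 WT array left out, Kit ranged from -0.0294 to 0.0778, Il7r from -0.1954 to 0.0867 and Slco4c1 from -0.159 to 0.2288. Of 123 named genes called, 81 were called in all 6 fits that left out a WT array and 5 in none. In each such fit the group left with fewer arrays is assumed to vary like the others. The cause of these shifts was not tested, apart from the fewer arrays or stricter fold of the setting itself. Small medians of the lists of T and NK cells, fate factors, chemokine receptors and integrins, mitosis, G1, ribosomal proteins and the respiratory chain changed sign with the scaling.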
